A study of Rattus norvegicus with 4 samples.

Results

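The insulin-like growth factor (IGF) system was followed in rat oligodendrocyte precursor cells (OPCs) in which the receptor GPR17 had been silenced. It was taken as 10 genes: the ligands Igf1 and Igf2, the receptors Igf1r and Igf2r, and the binding proteins Igfbp2, Igfbp3, Igfbp4, Igfbp5, Igfbp6 and Igfbp7. Members were all non-control probes whose transcript is assigned to one of these genes, which gave 16 of the 45598 non-control probes, on 40 spots of each array. The cells were primary OPCs from the cortices of postnatal day 2 Sprague-Dawley rats, expanded with PDGF and bFGF for 3 days and then moved to differentiating medium. In both groups they were transfected by Lipofectamine RNAiMax with 50 nM of a siRNA pool, directed against Gpr17 in the siGPR17 group and non-targeting in the siNEG group, and lysed 48 h later. Each group had 2 samples, with 1 one-color Agilent array per sample. The design has a single time point and a single siRNA pool. The labels do not tie a sample to an animal or a dissection, so p-values measure only the spread between these samples, which may be technical.

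IGF1 and IGF2 are secreted peptides that signal through the tyrosine kinase receptor encoded by Igf1r and, from there, through insulin receptor substrates to the PI3K, AKT and mTOR cascade and to ERK. Igf2r encodes a receptor that takes up IGF2 and mannose 6-phosphate-tagged lysosomal enzymes without kinase signalling. The binding proteins hold the ligands outside the cell, and proteases release them. In the oligodendrocyte lineage IGF1 is a known survival factor and a promoter of myelination, and the differentiating media used for OPCs usually contain insulin, which reaches the same receptor at high concentrations.

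Silencing was partial on these arrays. Gpr17 gave a normalized signal of 1107 and 1113 in the siNEG arrays and of 652.3 and 639.4 in the siGPR17 arrays. Both siGPR17 arrays lay below both siNEG arrays, with a log2 difference of -0.78 ± 0.085 (SE, n = 2 per group), and the adjusted p of limma was 0.209. Gpr17 passed both thresholds with normexp background correction (adjusted p 0.022 in limma) and with trend and robust eBayes (0.0152). Signals are the processed intensities after each array was scaled to its 75th percentile, and a gene was called at a fold change of 1.5 with an adjusted p under 0.07. All 4 arrays were on 1 slide and were scanned together. The siNEG arrays were in one column of the slide and the siGPR17 arrays in another, so column and treatment cannot be told apart. Between 26997 and 28244 probes were well above background on each array. All 14 genes of the oligodendrocyte lineage list, among them Olig2, Pdgfra and Mbp, were measured, with a summed signal from 624616 to 718211 per array. Mbp made between 31.6% and 39.6% of that sum. Both siGPR17 arrays lay below both siNEG arrays for 7 of the 14, against 25.3% of all tested genes. They lay above for 4, against 28.1%. The log2 difference was -0.48 for Cspg4 and 0.32 for Mbp. Mog differed by -0.67 with its brighter probe, and its dimmer probe overlapped between the groups at -0.27.

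Of the 10 genes, 9 were measured well enough to be tested and 0 were called by limma. At this setting 0.00357% of 28016 tested probes and 0% of 11656 tested genes were called, so that the count of 0 does not set the IGF genes apart. At an unadjusted p under 0.05 there were 3 of the 9 genes, Igfbp2 and Igf2 on the lower side and Igfbp6 on the higher side, against 16.2% of all tested genes. Igfbp6 was dim, and well above background on only 1 array of each group. For the lower side alone the count was 2 of 9, against 8.73% of all tested genes. Both arrays of one group lay on the same side of both arrays of the other, that is without overlap, for 5 of the 9 genes, against 53.4% of all genes. Of these, Igf2, Igf1r and Igfbp2 were lower in siGPR17, where 25.3% of all genes were lower without overlap, and Igfbp3 and Igfbp6 were higher, where the share was 28.1%. Only Igfbp2 reached a 1.5-fold difference, a size seen in 5.08% of all tested genes. The median log2 difference of the 9 genes was 0.019, beside 0.0099 over all tested genes.

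The start regions of Igfbp2 and Igf2 are shown because these genes had the largest differences among the tested IGF genes. They run from 250 bases before to 50 bases after the annotated start, in RefSeq on build GRCr8, and all 10 genes were found in that table. The first is Igfbp2, on the plus strand at chr9:81864561-81864860, and the others are both annotated starts of Igf2, on the minus strand at chr1:207253931-207254230 and chr1:207250426-207250725. Capitals mark GGGCGG (a GC box) and CACGTG (an E-box), searched on both strands.
Igfbp2: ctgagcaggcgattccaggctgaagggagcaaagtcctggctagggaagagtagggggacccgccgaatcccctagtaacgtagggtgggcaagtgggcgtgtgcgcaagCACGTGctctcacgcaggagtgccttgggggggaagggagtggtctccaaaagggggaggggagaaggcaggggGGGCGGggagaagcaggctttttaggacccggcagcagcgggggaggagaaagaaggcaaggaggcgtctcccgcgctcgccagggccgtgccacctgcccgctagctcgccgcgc
Igf2, upstream start: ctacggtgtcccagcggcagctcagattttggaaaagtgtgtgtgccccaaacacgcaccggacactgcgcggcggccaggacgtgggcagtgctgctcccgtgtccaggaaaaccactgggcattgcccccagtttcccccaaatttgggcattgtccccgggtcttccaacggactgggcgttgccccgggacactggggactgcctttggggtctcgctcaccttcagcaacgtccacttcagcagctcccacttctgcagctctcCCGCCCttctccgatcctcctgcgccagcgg
Igf2, downstream start: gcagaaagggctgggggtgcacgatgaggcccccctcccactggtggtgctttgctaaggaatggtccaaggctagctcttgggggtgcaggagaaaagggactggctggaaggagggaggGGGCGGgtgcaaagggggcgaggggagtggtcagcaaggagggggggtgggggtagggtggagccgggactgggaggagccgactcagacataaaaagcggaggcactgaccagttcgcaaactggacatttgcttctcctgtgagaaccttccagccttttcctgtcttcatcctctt
Igfbp2 holds CACGTG with its first base 140 bases before the start and GGGCGG at 66 bases before it. The upstream Igf2 window holds GGGCGG at 19 bases after the start and the downstream one at 129 bases before the start. Among the 10 genes, GGGCGG was found in 5 (Igf1r, Igf2, Igf2r, Igfbp2 and Igfbp7), and 33.1% of all 33469 start regions hold it. CACGTG was found in 3 (Igf1r, Igf2r and Igfbp2), against 6.42% of all regions. TATAAA, the core of a TATA box, was found in Igfbp4 only, against 14.2%. The shares are per region, while the 10 genes were counted by gene, and Igf2 had 2 regions. The regions of the 3 genes with CACGTG were 66.7% to 78% G and C, where the median of all regions was 51.7%. The counts and the shares are therefore not like for like. The marked runs do not overlap each other. The motifs were chosen with these sequences in view and are a description of the letters. Igfbp2 and Igf2, both lower in siGPR17, shared GGGCGG, and so did Igf1r, lower with its brighter probe, and Igfbp7 and Igf2r, whose arrays overlapped between the groups.

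Igfbp2, a binding protein made by glia and precursor cells and known to be abundant in the developing brain, had the largest difference of the 9 tested genes. Its signal was 357.4 and 428.5 in the siNEG arrays and 257.7 and 241.1 in the siGPR17 arrays. Both silenced cultures lay well below both controls. The mean was 392.9 ± 50.2 in siNEG and 249.4 ± 11.7 in siGPR17 (SD, n = 2 per group). The log2 difference was -0.65 ± 0.13 (SE), with a 95% interval from -1.001 to -0.30, an unadjusted p of 0.0064 and an adjusted p of 0.211 in limma. The siNEG arrays differed from each other by 0.26 on the log2 scale, and the siGPR17 arrays by 0.096. A difference at least as large on the lower side was found for 217 of the 11656 tested genes.

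The spots of the Igfbp2 probe gave the same order. The 2 spots of this probe read 353.7 and 361.2 on siNEG replicate 1, and 427.2 and 429.7 on siNEG replicate 2. On the siGPR17 arrays they read 252.4 and 263.2 on replicate 1 and 228.4 and 254.6 on replicate 2. Every siNEG spot was thus brighter than every siGPR17 spot. Spots of an array are repeat reads of the same sample, so they add no replicates of the treatment. With eBayes set to trend and robust, which lets the expected spread follow the signal, Igfbp2 passed both thresholds with an adjusted p of 0.0437 in limma. That setting called 1.58% of all tested genes. With normexp background correction the adjusted p of limma was 0.0562, but the log2 difference was -0.50, under the fold threshold, in a setting that called 0.961% of genes.

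Igfbp2 is also known in astrocytes, and genes of that cell type were measured here. All 8 astrocyte genes were tested, 4 of them were lower in siGPR17 without overlap, against 25.3% of all genes, and 0 were higher without overlap. The others overlapped, with Gja1 at 0.33, Aldh1l1 at 0.27, Sox9 at 0.19 and Aldoc at -0.03. Aqp4, the water channel of astrocyte end-feet, gave 160.9 and 168.8 in siNEG and 72.9 and 57.1 in siGPR17, a log2 difference of -1.35. Gfap, the astrocyte intermediate filament, gave 295.4 and 261.4 in siNEG and 167.7 and 198.1 in siGPR17, a difference of -0.61. Aqp4, Gfap and Igfbp2 were thus low in the same 2 arrays, while 3 genes of the list had differences above 0. Summed over the list the signal was between 115468 and 130021 in siNEG and between 117733 and 118929 in siGPR17, but Aldoc alone made at least 93.1% of it. Without Aldoc the sum was 7985 and 8439 in siNEG and 6418 and 6346 in siGPR17, lower in both silenced arrays. Most of that remainder was Slc1a3, with 6967 and 7592 in siNEG and 5672 and 5545 in siGPR17. Genes of precursor cells were lower in both silenced arrays too. Cspg4 gave 16311 and 17821 in siNEG and 12342 and 12092 in siGPR17, a log2 difference of -0.48. Pdgfra gave 17719 and 16502 in siNEG and 14496 and 14646 in siGPR17, a difference of -0.23. Of the 14 oligodendrocyte lineage genes, 7 were lower without overlap, against 25.3% of all genes, and 4 were higher, against 28.1%. The part of astrocytes or of precursor cells in the Igfbp2 difference was not tested. In these bulk cultures fewer cells of a type and less RNA per cell cannot be told apart.

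**Figure D1:**
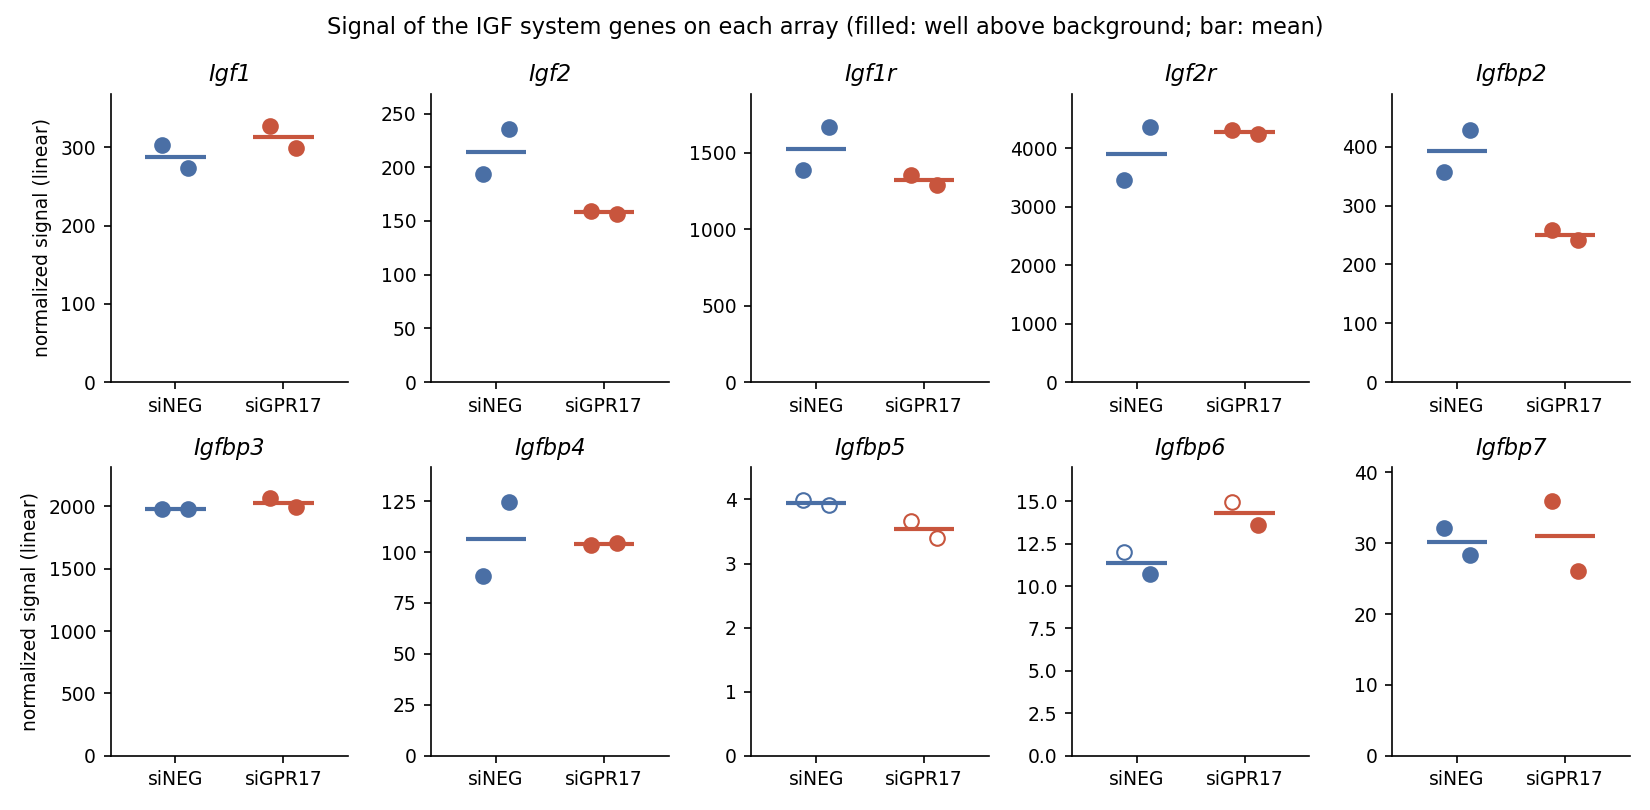
Normalized signal on a linear axis from 0, in one panel per gene of the IGF system, with a point for each array and a bar for the mean of the 2 arrays of a group. Filled points were well above background, and Igfbp2 and Igf2 show the siGPR17 arrays at 257.7, 241.1 and 159.6, 156.3, below both siNEG arrays.

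Of the ligands, Igf2, the growth factor of fetal tissues, was lower in siGPR17. Its tested probe gave 193.3 and 235.9 in siNEG and 159.6 and 156.3 in siGPR17. The silenced arrays lay close together and below both controls. The log2 difference was -0.44 ± 0.13 (SE, n = 2 per group), with a 95% interval from -0.79 to -0.08, an unadjusted p of 0.0275 and an adjusted p of 0.261 in limma. A difference at least as large on the lower side was found for 660 of the tested genes. The height of siNEG replicate 2 rested on 1 of its 2 spots, which read 195.7 and 284.4, whereas the spots of siNEG replicate 1 read 185.6 and 201.4. All siGPR17 spots lay between 153.6 and 162.3, so that no spot overlapped. Without siNEG replicate 2 the log2 difference was -0.29, and without siNEG replicate 1 it was -0.58.

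The other Igf2 probe, directed at the same transcript, gave 14.2 and 6.95 in siNEG and 3.98 and 8.15 in siGPR17. Well above background on 0 of the 4 arrays, and overlapping between the groups, it was not tested. Igf2 is known in meninges and choroid plexus, and genes of both were partly detected in these cultures. Of the 10 fibroblast, mural and meningeal genes 5 were tested, and Dcn, Lum, Pdgfrb and Rgs5 were well above background on 0 of the 4 arrays. Tagln, a smooth muscle actin-binding protein, was lower in siGPR17 like Igf2, from 67.4 and 76.0 to 32.5 and 43.4, a log2 difference of -0.93 with an adjusted p of 0.21 in limma. The other 4 tested genes had differences above 0, and 2 of them, Acta2 and Fn1, were higher without overlap, against 28.1% of all genes. Acta2, a smooth muscle actin, gave 53.7 and 45.2 in siNEG and 60.7 and 58.2 in siGPR17. Fn1 gave 23.1 and 18.2 in siNEG and 32.7 and 24.5 in siGPR17. Col1a2 overlapped between the groups, with 351.6 and 268.2 in siNEG and 347.3 and 364.4 in siGPR17. The list sum, of which Col1a2 made between 59.1% and 65.7%, was 571.4 and 453.4 in siNEG and 574.6 and 554.3 in siGPR17. Ttr, the transthyretin of choroid plexus, gave 71.2 and 64.6 in siNEG and 97.9 and 93.6 in siGPR17, in the opposite direction to Igf2. Of the 4 choroid plexus genes 2 were tested, with a list sum of 246.8 and 205.9 in siNEG and of 292.0 and 324.6 in siGPR17. Folr1 made between 62.4% and 66.7% of the choroid plexus sum. The part of meningeal and choroid plexus cells in the Igf2 values was not tested.

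**Figure D2:**
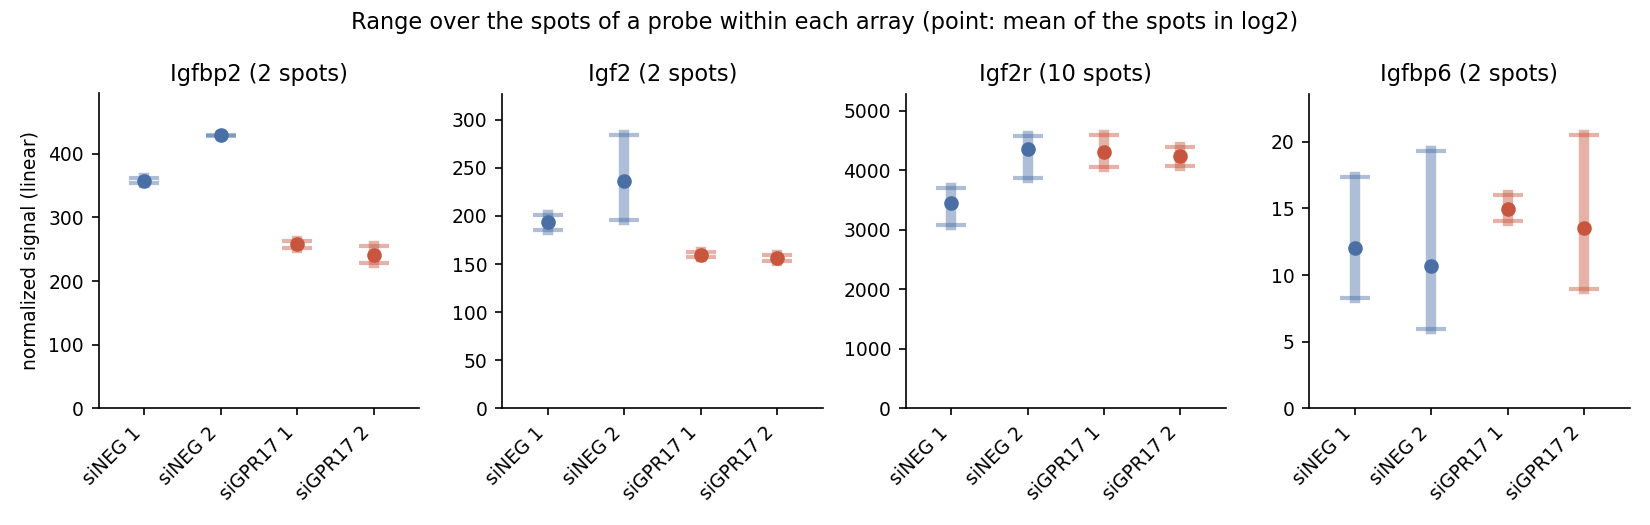
Lowest to highest spot of the probe on each array for Igfbp2, Igf2, Igf2r and Igfbp6, with the mean of the spots as a point, on a linear signal axis from 0. The spots of the 2 groups are apart for Igfbp2 and Igf2, and they overlap for Igf2r and for Igfbp6, whose spots on siNEG replicate 2 reach from 5.93 to 19.3.

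Igf1, the ligand known as a survival factor of oligodendrocytes, overlapped between the groups. The tested probe gave 302.5 and 274.2 in siNEG and 326.8 and 298.9 in siGPR17. Replicate 2 of siGPR17 lay between the siNEG arrays. The log2 difference was 0.12 ± 0.11 (SE, n = 2 per group), with a 95% interval from -0.17 to 0.41 and an adjusted p of 0.607 in limma. Leaving out replicate 1 or 2 of siNEG gave an Igf1 value of 0.19 or 0.047, and leaving out replicate 1 or 2 of siGPR17 gave 0.054 or 0.18.

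Igf1 had 5 probes in all, and the other 4 were dim and were not tested. The probe that shares its transcript with the tested one gave 19.3 and 26.8 in siNEG and 14.5 and 14.7 in siGPR17. It was well above background on 1 siNEG array and on 0 siGPR17 arrays, so that no fold change is given. Its siGPR17 arrays lay below both siNEG arrays, unlike those of the tested probe. A probe for another Igf1 transcript, on 10 spots, gave 18.5 and 12.6 in siNEG and 15.6 and 13.8 in siGPR17, with the groups overlapping. The remaining 2 probes, for a predicted Igf1 transcript, were well above background on 0 of the 4 arrays, with signals from 3.33 to 9.96.

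Igf1r, the signalling receptor of both ligands, was measured by 2 probes that disagreed in sign. The brighter probe gave 1385 and 1666 in siNEG and 1352 and 1289 in siGPR17. The siGPR17 arrays were lower, but replicate 1 of siNEG lay close above them. The log2 difference was -0.20 ± 0.13 (SE, n = 2 per group), with a 95% interval from -0.55 to 0.15 and an adjusted p of 0.472 in limma. The dimmer probe gave 160.4 and 170.3 in siNEG and 171.4 and 171.5 in siGPR17. These siGPR17 arrays were above both siNEG arrays by a margin narrower than the gap between the siNEG arrays. Its log2 difference was 0.05 ± 0.089, with an interval from -0.19 to 0.30 and an adjusted p of 0.792 in limma. Without siNEG replicate 2 the brighter probe differed by -0.07 and without siNEG replicate 1 by -0.34, and the mean over both probes was -0.075. Neither probe of Igf1r gave a difference larger than the spread between replicates.

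Igf2r, the receptor that clears IGF2, was measured on 10 spots per array. Its signal was 3451 and 4364 in siNEG and 4315 and 4250 in siGPR17. The siGPR17 arrays lay between the siNEG arrays, and replicate 1 of siNEG stood below the other 3 arrays. Between the groups the log2 difference was 0.14 ± 0.14 (SE, n = 2 per group), with a 95% interval from -0.25 to 0.54 and an adjusted p of 0.646 in limma. Spots of siNEG replicate 1 ranged from 3085 to 3701, below the lowest spot of each other array, which was 3881 on siNEG replicate 2. The sign of the Igf2r difference rested on that array, since without siNEG replicate 1 it was -0.03.

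**Figure D3:**
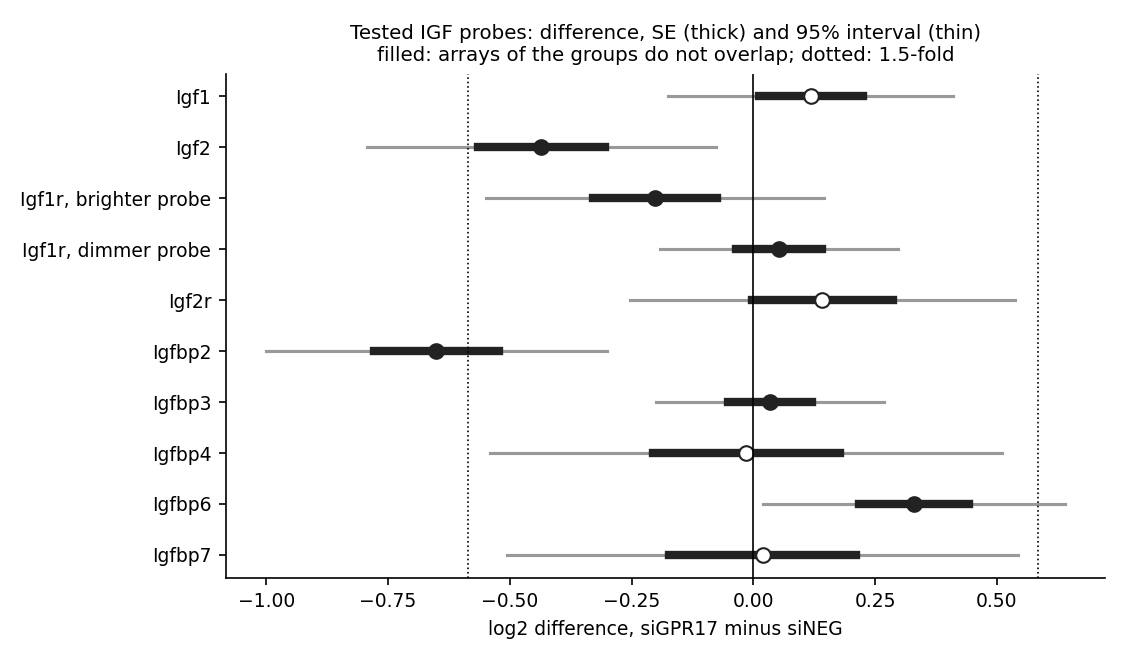
Log2 difference of siGPR17 minus siNEG for the 10 tested probes of the IGF system, with the SE as a thick bar, the 95% interval as a thin line and dotted lines at a 1.5-fold change. The interval of Igfbp2, from -1.001 to -0.30, and that of Igf2, from -0.79 to -0.08, lie below 0, that of Igfbp6 lies above 0, and the others include 0.

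The other binding proteins differed less than Igfbp2. Igfbp3, the main carrier of IGFs in blood, gave 1979 and 1983 in siNEG and 2063 and 1995 in siGPR17. The siGPR17 arrays were above the siNEG arrays by a small margin, and the 2 siNEG arrays were nearly equal. Igfbp3 had a log2 difference of 0.03 ± 0.086 (SE, n = 2 per group), with a 95% interval from -0.20 to 0.27 and an adjusted p of 0.862 in limma. The spots of Igfbp3 overlapped between the groups, from 1940 to 2019 in siNEG and from 1913 to 2145 in siGPR17. A 1.5-fold change of Igfbp3 in either direction lies outside its interval.

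Igfbp4, a binding protein that PAPP-A cleaves, gave 88.4 and 124.8 in siNEG and 103.5 and 104.4 in siGPR17. The siGPR17 arrays were almost equal and lay between the siNEG arrays. Igfbp4 had a log2 difference of -0.01 ± 0.19 (SE, n = 2 per group), with a 95% interval from -0.54 to 0.51 and an adjusted p of 0.977 in limma. The 2 spots of Igfbp4 agreed within each array, from 86.7 to 90.1 on siNEG replicate 1 and from 123.8 to 125.7 on siNEG replicate 2. The gap between the siNEG arrays was thus larger than the spread of spots, and the sign of Igfbp4 turned with the array left out, from -0.26 to 0.23.

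Igfbp5, Igfbp6 and Igfbp7 were dim. Igfbp5, which binds matrix and is next to Igfbp2 in the gene order of the RefSeq table, gave 3.99 and 3.91 in siNEG and 3.67 and 3.40 in siGPR17. No array had it well above background and it was not tested, so the neighbours Igfbp2 and Igfbp5 cannot be compared. Igfbp6, which prefers IGF2 over IGF1, gave 12.01 and 10.71 in siNEG and 15.0 and 13.6 in siGPR17. Its siGPR17 arrays were higher, but it was well above background on only 1 array of each group, and there on only 1 of its 2 spots. For Igfbp6 the log2 difference was 0.33 ± 0.11 (SE, n = 2 per group), with a 95% interval from 0.021 to 0.64, an unadjusted p of 0.0412 and an adjusted p of 0.283 in limma. The 2 spots of Igfbp6 on siNEG replicate 2 read 5.93 and 19.3, and those on siGPR17 replicate 2 read 8.97 and 20.5. The spots thus overlapped between the groups, and with normexp background correction the log2 difference was 0.096.

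Igfbp7, a related protein of low affinity for IGFs that is known in vessels, gave 32.1 and 28.3 in siNEG and 35.9 and 26.0 in siGPR17. The siGPR17 arrays lay on either side of both siNEG arrays. Igfbp7 had a log2 difference of 0.019 ± 0.19 (SE, n = 2 per group), with a 95% interval from -0.51 to 0.54 and an adjusted p of 0.969 in limma. Endothelial genes were measured beside it. Of 8, the 4 tested ones (Cdh5, Kdr, Tek and Vwf) were all higher in siGPR17 without overlap, against 28.1% of all genes. Flt1 overlapped between the groups and was not tested, and Pecam1, Cldn5 and Emcn were well above background on 0 of the 4 arrays. The endothelial list sum was 1210 and 1097 in siNEG and 1677 and 1582 in siGPR17. Vwf made between 67.3% and 71.8% of it. Without Vwf the sum was 341.2 and 358.6 in siNEG and 512.1 and 511.0 in siGPR17.

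**Figure D4:**
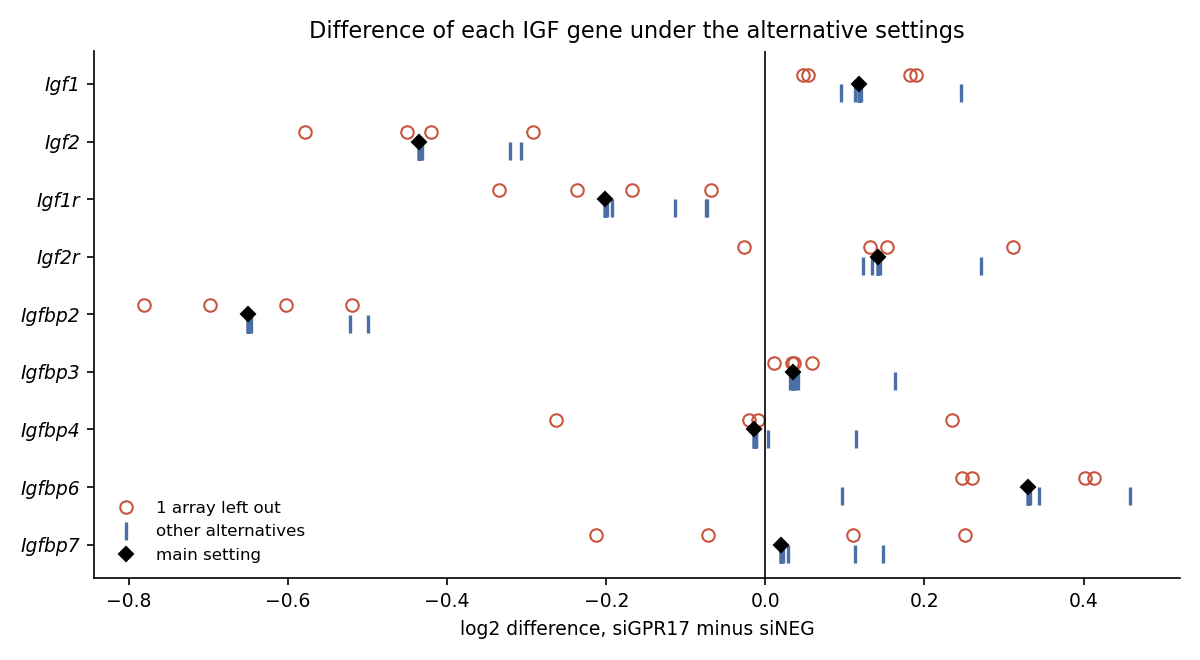
Log2 difference of siGPR17 minus siNEG for the 9 tested IGF genes in the main setting (diamonds), with 1 array left out (circles) and under the other alternatives (ticks). Igfbp2 stayed between -0.78 and -0.50 and Igf2 between -0.58 and -0.29, whereas points of Igf2r, Igfbp4 and Igfbp7 lie on both sides of 0.

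Genes taken as regulators of IGF availability formed a list of 14, of which 7 were tested and 0 were called by limma. Of the 7, 2 had an unadjusted p under 0.05, against 16.2% of all genes. The arrays of 3 did not overlap on the lower side, against 25.3%, and those of 1 on the higher side, against 28.1%, with a median log2 difference of -0.07 beside 0.0099 over all genes. Htra1, a secreted protease that cleaves IGF binding proteins, gave 316.9 and 290.9 in siNEG and 405.1 and 467.3 in siGPR17, a log2 difference of 0.52 with an adjusted p of 0.217 in limma. Both silenced arrays of Htra1 were above both controls. Igfbpl1, a binding-protein-like gene of developing brain, gave 606.6 and 622.7 in siNEG and 495.5 and 473.5 in siGPR17, a difference of -0.34. Mmp2, a matrix metalloprotease, differed by -0.41, with siNEG arrays at 255.7 and 377.7, and Furin, a proprotein convertase, by -0.24, with siNEG arrays at 690.4 and 912.7. For Mmp2 and Furin the gap between the siNEG arrays was wider than the difference between the groups. Without siNEG replicate 2 the value was -0.13 for Mmp2 and -0.04 for Furin, and without siNEG replicate 1 it was -0.69 and -0.45. The mean over both tested Mmp2 probes was -0.24, since the dimmer one overlapped between the groups at -0.07. Pappa and Pappa2, the proteases of Igfbp4 and Igfbp5, had no probe that was named here.

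Receptor relatives and adaptors were 16 genes, of which 14 were tested and 0 were called by limma. The arrays of 8 did not overlap on the lower side and those of 1 on the higher side, where 25.3% and 28.1% of all genes did so. The unadjusted p was under 0.05 for 3 of the 14, all lower, against 8.73% of all genes on that side. The median log2 difference was -0.17. Irs2, an adaptor that links IGF1R and the insulin receptor to PI3K, gave 1389 and 1460 in siNEG and 994.4 and 971.7 in siGPR17. Both silenced arrays lay below both controls, and the log2 difference was -0.53 ± 0.088 (SE, n = 2 per group), with an adjusted p of 0.209 in limma. Nedd4, a ubiquitin ligase that acts on IGF1R signalling, gave 11838 and 12511 in siNEG and 8521 and 8228 in siGPR17, a log2 difference of -0.54 ± 0.090 with the same adjusted p. Grb14, an inhibitory adaptor of the insulin receptor, differed by -0.39, from 538.7 and 606.3 to 446.4 and 426.9. The insulin receptor gene Insr gave 105.3 and 116.4 in siNEG and 95.3 and 88.5 in siGPR17, a difference of -0.27. Irs1 differed by -0.16. Gab1, a docking protein, was the one gene of the list on the higher side without overlap, with a difference of 0.10.

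The PI3K, AKT, mTOR and ERK list held 35 genes, of which 32 were tested and 0 were called by limma. The arrays of 12 did not overlap on the higher side, against 28.1% of all genes, and those of 7 on the lower side, against 25.3%. The unadjusted p was under 0.05 for 3 of the 32, against 16.2% of all genes, and the median log2 difference was 0.051. Eif4ebp1, the translation repressor that mTOR phosphorylates, gave 3371 and 3912 in siNEG and 5344 and 5591 in siGPR17. Both silenced arrays were well above both controls, and the log2 difference was 0.59 ± 0.11 (SE, n = 2 per group), with an adjusted p of 0.21 in limma. With trend and robust eBayes Eif4ebp1 passed both thresholds at an adjusted p of 0.0348 in limma, and no other gene of the 4 pathway lists did. Mapk3, which encodes ERK1, was higher by 0.31, or by 0.19 without siNEG replicate 1. Trib3, an inhibitor of AKT, was higher by 0.39, less than the gap between its siNEG arrays at 40.4 and 28.5, and leaving out replicate 1 or 2 of siNEG gave 0.64 or 0.14. On the lower side were Rps6, a ribosomal protein downstream of mTOR, at -0.34 (-0.20 without siNEG replicate 2), and Pik3ca, the catalytic PI3K subunit, at -0.33. The mean over the 3 tested Pik3ca probes was -0.20, and 1 of them overlapped between the groups. Akt1 differed by 0.11 and Mtor by 0.29, both without overlap.

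**Figure D5:**
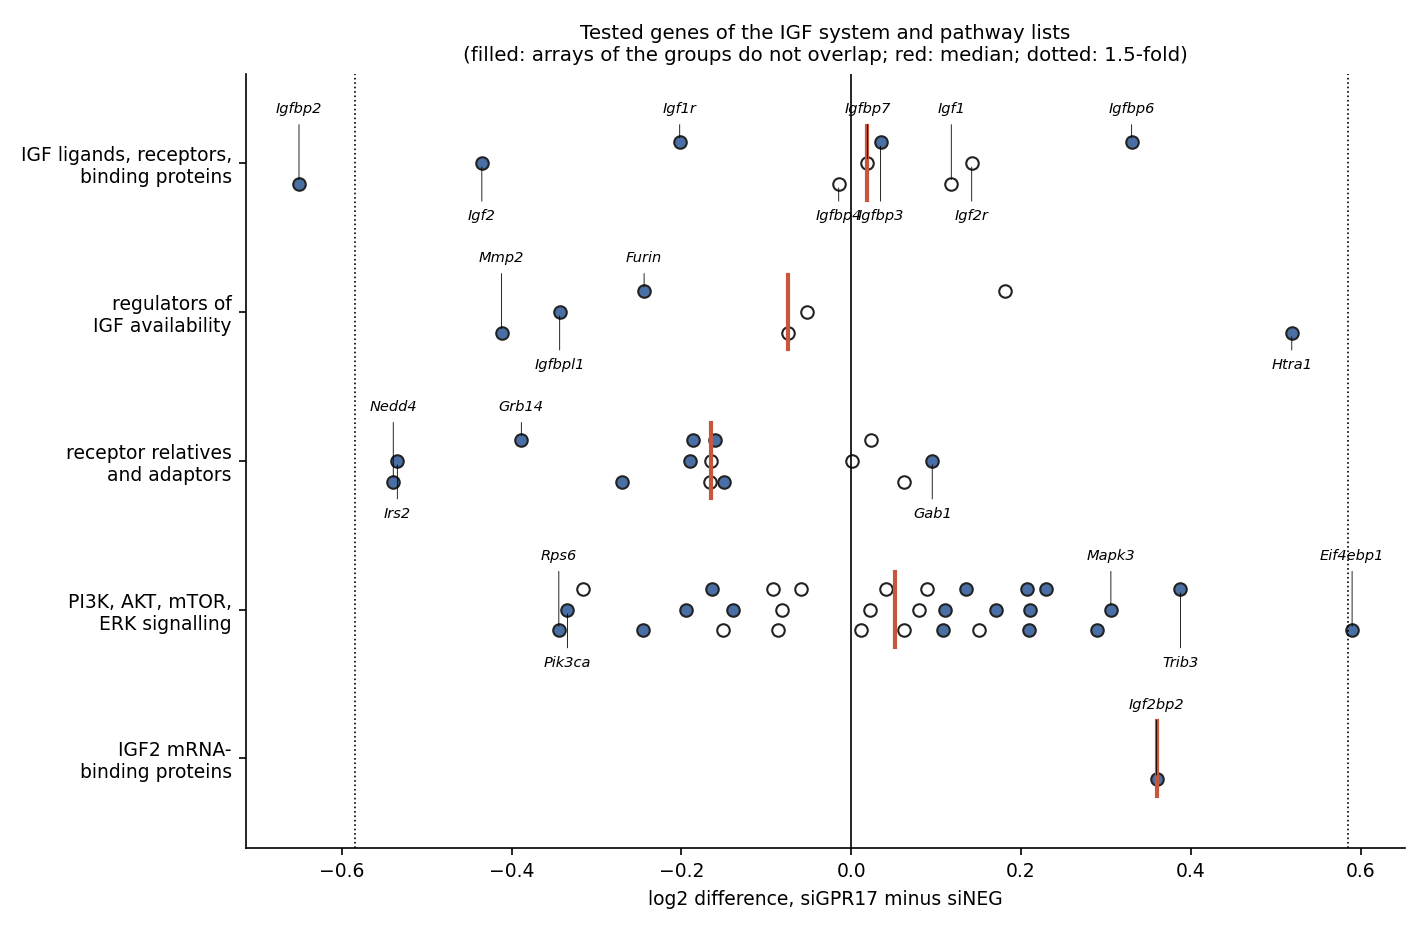
Log2 difference of siGPR17 minus siNEG for the tested genes of the IGF system and of the 4 pathway lists (1 gene is not drawn), with the list's median as a red line and filled points where the 2 groups are without overlap. Igfbp2 and Eif4ebp1 are the genes beyond the dotted 1.5-fold lines, and the medians lie between -0.17 and 0.36.

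Of the 3 proteins that bind Igf2 mRNA, 2 had a probe and only Igf2bp2 was tested. It gave 6823 and 7658 in siNEG and 9245 and 9305 in siGPR17, on the opposite side to Igf2. Both siGPR17 arrays were above both siNEG arrays, with a log2 difference of 0.36 ± 0.10 (SE, n = 2 per group), an unadjusted p of 0.0228 and an adjusted p of 0.249 in limma. The dimmer tested Igf2bp2 probe gave 1192 and 1521 in siNEG and 1554 and 1529 in siGPR17, a log2 difference of 0.20. The mean over both Igf2bp2 probes was 0.28. Igf2bp1 was well above background on 0 of the 4 arrays.

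Other cell types that such cultures can hold were near or above the limit of detection. Of 10 microglial genes, 8 were tested and 3 were lower in siGPR17 without overlap, against 25.3% of all genes. Aif1, which encodes IBA1, gave 46.1 and 43.5 in siNEG and 33.0 and 27.8 in siGPR17 with its brighter probe. The dimmer Aif1 probe overlapped between the groups, with 20.6 and 16.6 in siNEG and 17.8 and 11.9 in siGPR17. The microglial list sum was 4009 and 2695 in siNEG and 2707 and 3169 in siGPR17, with overlap. Cx3cr1 made between 46.0% and 62.7% of that sum, and without it the sum was 1497 and 1455 in siNEG and 1369 and 1284 in siGPR17, lower in both silenced arrays. All 7 neuronal genes were tested, and 5 were lower without overlap, against the same 25.3%. Their list sum was 6852 and 8160 in siNEG and 6673 and 6413 in siGPR17. Map2 made between 57.7% and 59.2% of the neuronal sum. Microglia are a known source of Igf1 in the brain, and the tested Igf1 probe overlapped between the groups. The part of microglia and neurons in the values of the IGF genes was not tested.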

How the data were processed

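Transcript levels were measured in 2 siNEG and 2 siGPR17 samples, grouped by their labels. The authors deposited the processed intensity of each spot from Agilent Feature Extraction 10.7.3.1, corrected for background and not normalized between arrays, with spot and local background medians and quality flags. Here spots with outlier flags were left out, log2 intensities were reduced by the 75th percentile of their array, and spots of a probe were averaged. A probe was tested if at least 2 of the 4 arrays had it well above background, with limma 3.58.1 in R 4.3.3, with Benjamini-Hochberg adjustment over all 28016. A probe counted as well above background on an array where at least 50% of its used spots had that flag. On simulated data with 200 changed probes, 110 were recovered with 12 false calls. The changes set in the simulation were 2-fold or 4-fold, larger than the difference of any tested IGF gene here. Recovery of smaller differences was not simulated. The number of arrays limits the precision. Intervals are 95% t intervals of the fit.

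Probes were named by matching their transcripts to RefSeq (GRCr8, names only), which named 21093 of 45565. For a gene, the brightest tested probe stands. Gpr17, every IGF gene and, per pathway list, the 3 largest non-overlapping differences in each direction are named. Of these, 1 pathway gene is counted but not reported here by itself. Insr, Irs1, Akt1, Mtor and the marker genes were named after their values were seen. The genes and lists were chosen with earlier results of these data known. Where a probe was not tested, no fold is given. Alternatives covered background correction (normexp on the spot median, since the planned spot mean was not used), scaling, filters, tests, blocking and leaving out arrays.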

Additional observations from a re-analysis of the deposited data

How the results depend on the processing

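The main setting gave 1 probe past the thresholds, normexp gave 242 and trend and robust eBayes 420. Spike-in scaling, a floor for dim probes, no filter and a filter that asks for all 4 arrays each gave 0. A Student t-test also gave 0. The paper states that test for comparisons of 2 groups in general and names no test for the arrays. The cause of the unlike counts was not tested. Trend and robust eBayes called 1 IGF gene, Igfbp2, and 1 gene of the pathway lists, Eif4ebp1; no other alternative called any of either. The median of the IGF genes became 0.15 with spike-in scaling, which moved the median of all tested probes from 0.0094 to 0.14. Igf2r reversed to -0.027 without siNEG replicate 1 (leaving out arrays gave -0.027 to 0.31). Igfbp4 reversed to 0.0033 with quantile normalization, to 0.11 with spike-in scaling, and lay between -0.26 and 0.23 with arrays left out. Igfbp7 lay between -0.21 and 0.25 with arrays left out, and was -0.07 without siNEG replicate 2. Of 374 alternatives of 25 named genes, 364 kept direction and side, 6 reversed and 4 passed the thresholds; 6 of 9 IGF genes kept their sign throughout. The samples share only a number: their replicate differences correlated at -0.065 across probes, and the replicate block gave 0 probes. Signal over background limits Igfbp5, Igfbp6 and the dim Igf1 and Igf2 probes.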
